A study of Homo sapiens with 9 samples.

Results

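Intron and distal peaks of ARID1A alone are peaks of the deposited ARID1A list that share no base with either the ARID1B or the ARID2 list. They were chosen from the ARID1A list by its deposited feature class (intron or distal) and by coordinate overlap with both other lists. The rule found 1904 peaks, of which 1001 were intronic and 903 distal, out of 12852 ARID1A peaks in all and out of 3277 intron or distal ARID1A peaks. The data come from ChIP-seq in HepG2 cells, a human line derived from liver cancer. Each of 4 antibodies had 2 replicates (ARID1A and ARID1B from Santa Cruz, ARID2 and SNF5 from Bethyl). There was also 1 input library, which was not used here. All antibodies were applied to the same cell line, and no genotype or treatment distinguished the groups. The authors pooled the replicates of an antibody before peak calling and deposited 1 list per subunit, so the values below have no replicate error, the depth behind each list is unknown, and a subunit, its antibody and its depth cannot be told apart.

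SWI/SNF complexes are ATP-dependent remodelers that slide or evict nucleosomes. ARID1A and ARID1B are mutually exclusive subunits of the BAF form, whereas ARID2 marks the PBAF form, and SNF5 (SMARCB1) is a core subunit found in both. In liver cells, enhancers in introns and between genes are bound by factors such as HNF4A, FOXA, C/EBP and AP-1, and BAF complexes are known to act at such elements.

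The 7 sequences below show what these sites look like. For each of 7 motifs, the peak shown is the one of 80 to 300 bp with a match inside it that lay under the SNF5 peak of highest score and clear of annotated exons, among the chromosomes from which sequence was taken. Capitals mark the match to the motif's letters, and whether a factor binds there is unknown. Sequences are the plus strand of GRCh37 (the assembly named hg19 in the labels), and all 7 peaks carried the deposited class intron.
SOX9 locus, AP-1 letters, chr17:70122984-70123171: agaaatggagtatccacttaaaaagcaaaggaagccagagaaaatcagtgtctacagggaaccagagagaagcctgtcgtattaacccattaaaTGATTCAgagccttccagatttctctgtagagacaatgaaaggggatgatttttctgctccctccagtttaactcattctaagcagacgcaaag
GNAQ intron 3, HNF4 letters, chr9:80422989-80423137: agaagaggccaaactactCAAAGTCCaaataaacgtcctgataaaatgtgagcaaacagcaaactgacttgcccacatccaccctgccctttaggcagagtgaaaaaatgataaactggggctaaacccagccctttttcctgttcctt
MYO5C intron 1, FOXA letters, chr15:52580703-52580903: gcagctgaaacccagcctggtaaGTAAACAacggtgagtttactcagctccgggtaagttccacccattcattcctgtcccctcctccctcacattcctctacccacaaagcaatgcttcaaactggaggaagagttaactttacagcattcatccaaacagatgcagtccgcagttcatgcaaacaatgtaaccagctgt
CTD-2547E10.2 locus, C/EBP letters, chr16:21515128-21515290: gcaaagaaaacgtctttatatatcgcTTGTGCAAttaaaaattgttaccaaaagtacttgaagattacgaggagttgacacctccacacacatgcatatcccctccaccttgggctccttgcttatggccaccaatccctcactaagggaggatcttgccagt
MIPOL1 intron 11, TEAD letters, chr14:37935443-37935654: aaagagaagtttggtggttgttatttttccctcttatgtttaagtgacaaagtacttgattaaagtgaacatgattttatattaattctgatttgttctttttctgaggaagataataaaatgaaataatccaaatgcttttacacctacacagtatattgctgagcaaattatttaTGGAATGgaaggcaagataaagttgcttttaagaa
RHBG intron 1, CTCF letters, chr1:156342316-156342596: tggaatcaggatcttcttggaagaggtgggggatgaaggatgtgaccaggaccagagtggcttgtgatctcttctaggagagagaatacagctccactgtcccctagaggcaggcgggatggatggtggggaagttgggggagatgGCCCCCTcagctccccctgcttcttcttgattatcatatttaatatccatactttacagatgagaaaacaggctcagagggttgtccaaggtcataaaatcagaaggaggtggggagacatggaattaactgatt
KCNQ1 intron 2, E-box letters, chr11:2584300-2584544: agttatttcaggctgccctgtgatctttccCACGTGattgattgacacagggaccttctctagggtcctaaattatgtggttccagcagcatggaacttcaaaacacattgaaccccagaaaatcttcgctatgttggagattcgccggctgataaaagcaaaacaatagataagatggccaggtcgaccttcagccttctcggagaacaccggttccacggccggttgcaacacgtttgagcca
The GNAQ peak (149 bp) lay 14850 bp from the nearest transcription start site (TSS) and 224151 bp from the nearest ARID1B or ARID2 peak, under an SNF5 peak with a score of 50. The score is a whole number from the authors' peak caller that ran from 10 to 134 over the SNF5 list. KCNQ1, which encodes a potassium channel, held a peak 134211 bp from the nearest ARID2 peak and 167216 bp from the nearest ARID1B peak. By contrast, the MIPOL1 peak was 51 bp from an ARID1B peak, and it was also the least GC-rich of the 7, with 28.3% G or C. The SOX9 peak was 890 bp from an ARID2 peak. SOX9 is a transcription factor of progenitor and biliary cells, and the newer Gencode annotation placed no coding intron at that peak. The MYO5C, RHBG and CTD-2547E10.2 peaks lay 7005, 510 and 1395 bp from the nearest peak of another ARID.

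The chosen peaks were small. Their median width was 147 bp (quartiles 89 and 214 bp, range 53 to 1010 bp), against 246 bp for the 1373 intron or distal ARID1A peaks that shared a base with ARID1B or ARID2. Peaks of ARID1B alone and ARID2 alone in the same feature classes had medians of 138 and 147 bp. The smallest width, 53 bp, was shared by 222 of the 1904 peaks. Width bears on the rule itself, because a wider peak is more likely to touch another one, so these widths are given as a description. Together the 1904 peaks covered 321 kb. The widest, of 1010 bp, lay 4014 bp from the TSS of ZFP36 (chr19:39892932-39893941), which encodes an mRNA-decay factor. After it came peaks of 876 bp near the unnamed locus WI2-80423F1.1, 743 bp in intron 1 of UGDH, 731 bp near IPO7 and 714 bp in intron 1 of FASN. Of these 5, the UGDH peak had no SNF5 overlap.

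At the edge of the rule, 6 members lay directly against a peak of another ARID (a distance of 1 bp, which stands for adjacent bases), near TECTB, USP7, SPTBN1, SEPT2, HEMK1 and a copy of U6 on chromosome 5. On the other side, the intron or distal peaks near IRS1, ZNRF3 and RP11-437J19.1 were left out for sharing a single base, and those near SPTBN1 (a different peak) and GALNT13 for sharing 2 bp. In all, 42 members lay within 20 bp of another ARID, and 67 excluded peaks shared at most 20 bp. SNF5 overlapped 5 of the 6 adjacent members, and the exception, at U6, lay 1067 bp from the nearest SNF5 peak.

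More than 1000 bp from any ARID1B or ARID2 peak lay 1081 of the 1904 members (56.8%). Absence from a peak list does not show that a subunit is absent. The paper regards its own category of single-ARID peaks as an overestimate and describes some loci as mis-categorized. The median distance to the nearest ARID1B or ARID2 peak was 1751 bp, with quartiles of 314 and 16763 bp. Within 100 bp lay 10.3% of members, within 1000 bp 43.2%, and more than 10000 bp away 30.7%. The neighbour within 1000 bp was an ARID1B peak for 513 members and an ARID2 peak for 567, and some members had both. The member farthest from either subunit, near the olfactory receptor pseudogene OR7E33P on chromosome 13, was 3862411 bp away and had no SNF5 peak over it. The next was near MAOA on chromosome X (2272524 bp), followed by a peak near RP11-3L8.3 on chromosome 9 (2066337 bp) and a pair near AC113612.1 on chromosome 2 (1316967 and 1314100 bp). The central 50 bases of the AC113612.1 pair occurred 4 and 7 times in the genome, so a read of 50 bases from there has more than 1 possible origin.

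SNF5, which the rule did not use, overlapped 913 of the 1904 members. That share, 48.0% (Wilson 95% interval 45.7 to 50.2%, counting error over peaks only), stands against 71.3% of all ARID1A peaks. Intron or distal ARID1A peaks shared with another ARID were overlapped far more often, at 90.5% (odds ratio for members 0.0964, 95% interval 0.0790 to 0.118, adjusted p = 3.77e-156, two-sided Fisher exact test with Benjamini-Hochberg adjustment over 4 comparisons, as for the next 3). ARID1A-alone promoter peaks were also overlapped more often, at 58.4% (odds ratio 0.656, interval 0.589 to 0.730, adjusted p = 2.29e-14, Fisher exact test). Both differences kept their direction and their call within 5 strata of peak width, where the odds ratios were 0.129 and 0.744. The share depended on what counted as overlap: it was 3.52% against 10.4% of shared peaks with a reciprocal overlap of at least 50% (odds ratio 0.314) and 43.1% against 67.5% with midpoints within 500 bp (odds ratio 0.365), with the same direction and call. Peaks are not replicates, so these tests compare the deposited lists.

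**Figure D1:**
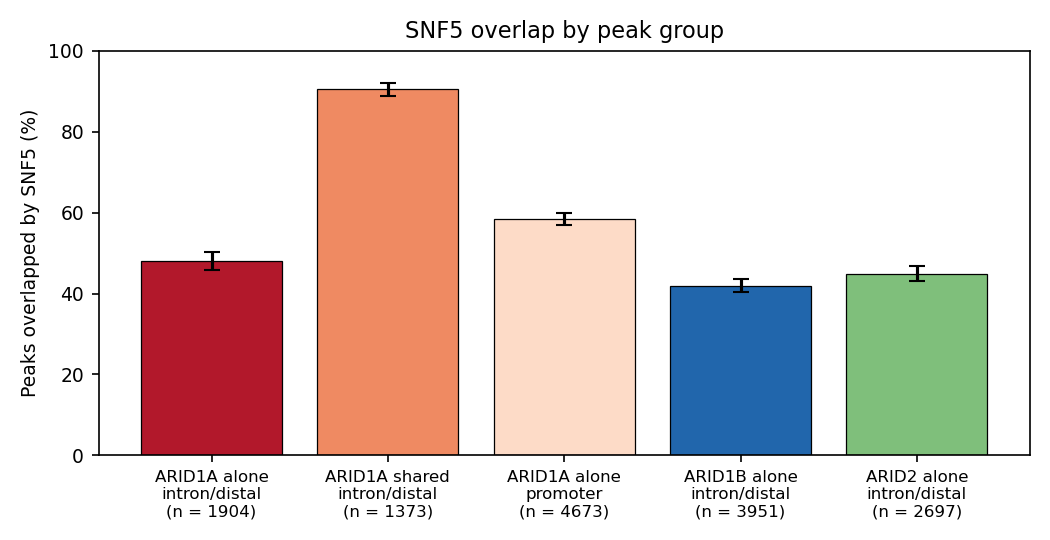
Share of peaks (%, bars) that share at least 1 bp with an SNF5 peak, for the 5 peak groups, with Wilson 95% intervals over peaks and the number of peaks under each bar. ARID1A-alone intron and distal peaks stand at 48.0%, near the ARID1B-alone (41.9%) and ARID2-alone (44.9%) groups and below the 90.5% of shared ARID1A peaks.

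Against the equivalent groups of the other subunits the differences were small and depended on the definition. SNF5 overlapped 41.9% of ARID1B-alone intron or distal peaks (odds ratio for ARID1A-alone members 1.28, interval 1.14 to 1.42, adjusted p = 1.99e-05, Fisher exact test). Repeated sequence moved with that result: the central 50 bases occurred more than once in the genome for 25% of the ARID1B-alone peaks and for 7.20% of the members, and SNF5 overlapped only 15.7% of such ARID1B-alone peaks. Among peaks whose central 50 bases occurred once, the shares were 48.8% for members and 50.7% for ARID1B alone, and the odds ratio turned to 0.925 (adjusted p = 0.196, Fisher exact test). ARID2-alone peaks were overlapped at 44.9% (odds ratio 1.13, interval 1.01 to 1.27, adjusted p = 0.0412, Fisher exact test), and that call was lost within strata of width (adjusted p = 0.0518, Mantel-Haenszel chi-square test). Limited to peaks more than 1000 bp from any other ARID, the 3 groups stood at 34.7%, 33.8% and 32%, with adjusted p-values of 0.602 and 0.208 (Fisher exact tests) for the members against ARID1B and ARID2.

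Among the members, distance from the other ARID subunits went with SNF5 overlap. It fell from 75.5% (interval 69.0 to 81%) of the 196 members within 100 bp of an ARID1B or ARID2 peak to 57.7% of the 364 at 301 to 1000 bp and 29.7% (25.6 to 34.1%) of the 448 beyond 20000 bp. Median width changed little over those bins, at 146, 148 and 143 bp. The same contrast between near and far peaks was present in the other groups: within 1000 bp, SNF5 overlapped 65.4% of members, 71.5% of ARID1B-alone and 64.5% of ARID2-alone peaks. These gradients are descriptions, and no test of them was made.

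**Figure D2:**
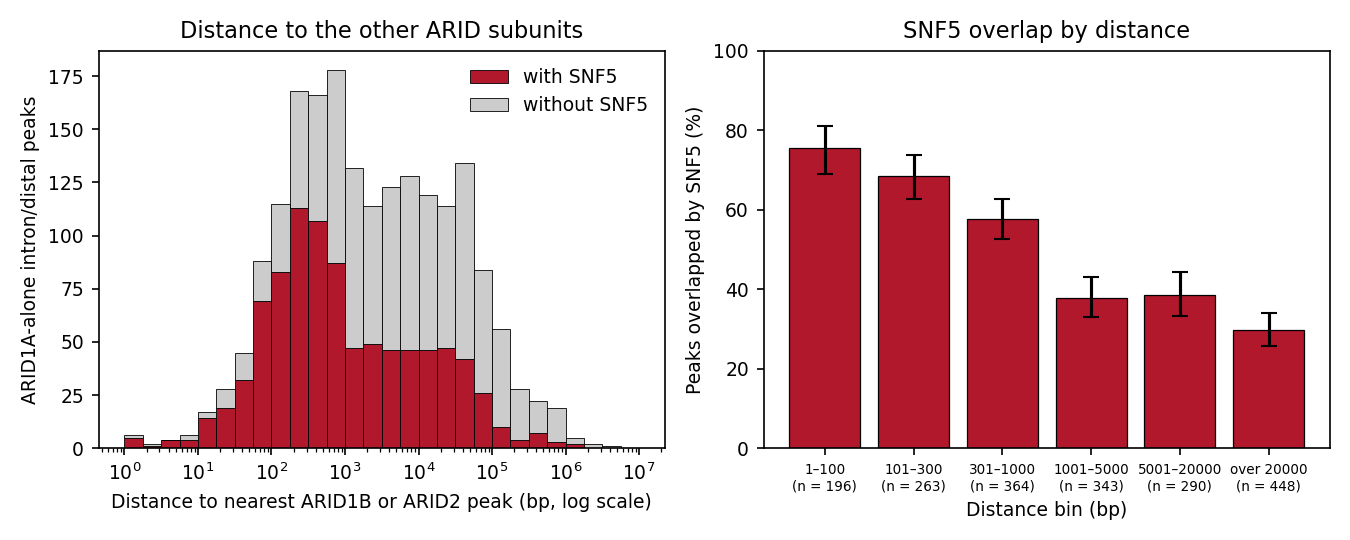
Left, number of ARID1A-alone intron and distal peaks by distance in bp (log axis) to the nearest ARID1B or ARID2 peak, stacked by SNF5 overlap. Right, share of peaks (%) with SNF5 in 6 distance bins with Wilson 95% intervals, falling from 75.5% at 1 to 100 bp to 29.7% beyond 20000 bp.

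By width, SNF5 overlapped 36.1% of members of up to 80 bp and 70.8% of those over 250 bp. The bins from 81 to 250 bp were flat, at 45.4 to 46.9%. A wider peak is more likely to touch another one, and no test of these bins was made. By distance to the TSS, the share was 44.1% at up to 2000 bp and 53.4% beyond 20000 bp, with 46.1 to 49.3% in the bins between. Intronic and distal members did not differ detectably, at 47.9% and 48.1% (odds ratio 0.992, 95% interval 0.828 to 1.19, p = 0.963, two-sided Fisher exact test). By chromosome, among those with at least 20 members, the share ran from 31.3% of 67 members on chromosome 12 to 64.3% of 84 on chromosome 20.

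The SNF5 peaks over the members had a median width of 993 bp and a median score of 22, against 535 bp and 19 over the whole SNF5 list and 1492 bp and 26 over shared intron or distal ARID1A peaks. A member could therefore share its SNF5 peak with other subunits without touching them. This was so for 458 of the 913: their SNF5 peak also overlapped an ARID1B or ARID2 peak elsewhere along its length. The other 455 lay under an SNF5 peak with ARID1A and neither other ARID. The highest-scoring SNF5 peak over a member, with a score of 57, lay in DPP4, a cell-surface dipeptidase (chr2:162884332-162884430), 46007 bp from any other ARID. A peak in IKBKAP, an Elongator subunit, followed with a score of 55, as did one near an unnamed locus on chromosome 6, and then came peaks near RNU1-8 and RP11-118B18.2 with 53. Of the 991 members without SNF5 overlap, 41.2% had an SNF5 peak within 1000 bp and 30.5% had none within 10000 bp. No SNF5, ARID1B or ARID2 peak lay within 10000 bp of 254 members (13.3%).

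Another ARID1A peak of any kind lay within 1000 bp of 26.5% of members and within 5000 bp of 47.6%. For 131 of the 504 with a neighbour within 1000 bp, that neighbour was an ARID1A promoter peak. The median distance to the deposited TSS was 5308 bp, with quartiles of 2207 and 13067 bp. The smallest was 999 bp, and 424 members lay within 2000 bp. The paper describes promoters as reaching 2000 bp to each side of a TSS, so these 424 would fall inside that limit. The farthest from a TSS lay 348103 bp from CTD-2311A18.1 on chromosome 5, only 11 bp from another ARID and under an SNF5 peak scored 53. It was followed by peaks 237410, 205143, 195013 and 187528 bp from EXTL2P1, SNORD78, AC010148.1 and UTRN. Against the newer Gencode annotation lifted to GRCh37, 11.7% of members lay less than 1000 bp from some transcript start and 8.0% touched an exon, so the deposited class leaves in a minority of sites that a later annotation would place at promoters. The first intron of a canonical coding transcript held 19.7% of members, against 15.8% of shared peaks, 15.4% of ARID1B-alone and 31.4% of ARID2-alone peaks.

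The sequence under the members was more GC-rich than that of ARID1B-alone and ARID2-alone peaks in the same feature classes. In 200 bp windows on the peak midpoints, the median GC content was 53% (quartiles 46 and 61.4%), against 49.5% in windows centred 1000 bp to either side. At least 50% GC was reached by 62.3% of 1902 members with known sequence, where all ARID1A peaks stood at 84.3%. The share was 56.4% in shared intron or distal ARID1A peaks (odds ratio 1.28, interval 1.11 to 1.47, adjusted p = 0.000782), 34.2% in ARID1B-alone peaks (odds ratio 3.17, interval 2.83 to 3.55, adjusted p = 4.45e-91) and 38.2% in ARID2-alone peaks (odds ratio 2.66, interval 2.36 to 3.01, adjusted p = 2.77e-58; two-sided Fisher exact tests, Benjamini-Hochberg over 4 comparisons). ARID1A-alone promoter peaks reached it far more often, at 92.4% (odds ratio 0.136). All 4 calls held with windows of 100 bp, over the whole peak, among peaks more than 1000 bp from another ARID, and among peaks whose central bases occurred once. Windows with a CpG observed-to-expected ratio of at least 0.6 and at least 50% GC made up 16.2% of members, 20.2% of shared peaks, 3.65% of ARID1B-alone and 5.45% of ARID2-alone peaks. Median GC content was 52.5% in members with SNF5 and 54% in those without. SNF5 overlap fell from 56.1% below 40% GC through 50.3% and 47.5% in the bins between to 43.8% at 60% GC or more. No test was made of this trend.

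**Figure D3:**
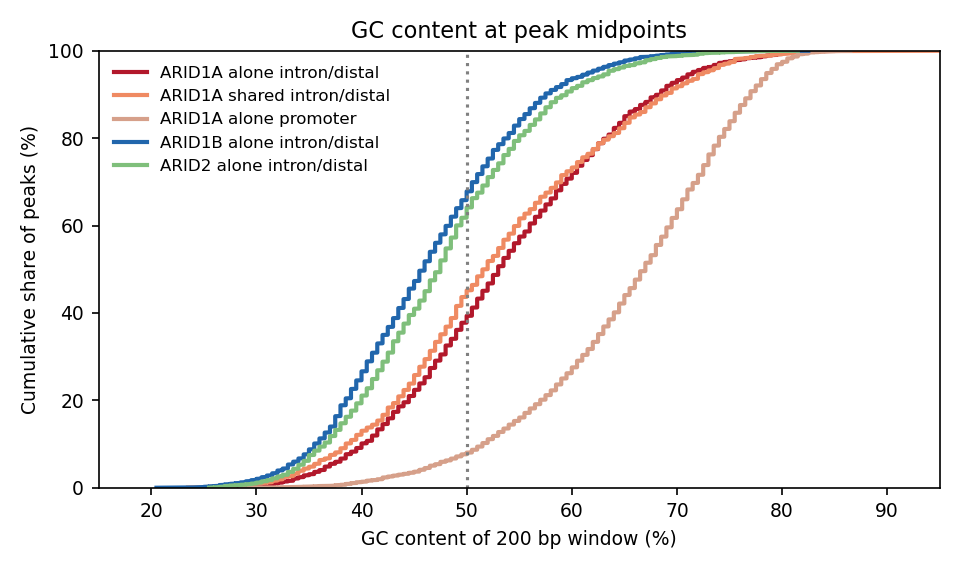
Cumulative share of peaks (%) by GC content (%) of the 200 bp window on the peak midpoint, for the 5 peak groups, with a dotted line at 50%. ARID1A-alone intron and distal peaks run close to shared ARID1A peaks and to the right of the ARID1B-alone and ARID2-alone groups, with medians of 53%, 52%, 46% and 47.5%.

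Short motif letters were counted on both strands of the same 200 bp windows, with windows 1000 bp to each side as background. HNF4 letters (CAAAGTCC) stood out most against the flanks, in 2.63% of members (50 of 1902) and 0.815% of flanking windows, a ratio of 3.22. ETS letters (CCGGAAG) were in 2.37% against 1.05%, SP/KLF letters (GGGCGGG) in 8.94% against 5.29%, FOXA letters (TGTTTAC) in 3.52% against 2.37%, CTCF letters (AGGGGGC) in 7.10% against 4.94%, and AP-1 letters (TGANTCA) in 7.47% against 5.68%. Scarcer than in the flanks were HNF1 (0.631% against 0.684%), GATA (2.10% against 2.42%), NF-Y (1.63% against 1.76%) and YY1 letters (1.21% against 1.26%). So was CAGGTG (19.5% against 20.9%), and AGGTCA stood at 16.1% in both. Median GC content was 53% in members and 49.5% in flanks, and the ratios were not adjusted for it. All the values above come from matches in members and flanks without a test. These are matches to core letters only, and 739 of the 1902 windows (38.9%) held none of the 18 motifs searched. In all ARID1A peaks, HNF4 letters were in 1.28%, AP-1 letters in 4.37% and SP/KLF letters in 26.7% of windows. Among members, HNF4 letters were in 3.94% of those with SNF5 (36 of 913) and 1.42% of those without (14 of 989), AP-1 letters in 8.76% and 6.27%, and FOXA letters in 4.38% and 2.73%. CAGGTG, the E-box of ZEB and SNAI repressors, went the other way, in 17.3% and 21.5%. So did AGGTCA, the nuclear receptor hexamer, in 14.8% and 17.4%, and the GATA letters AGATAAG, in 1.53% and 2.63%. CRE letters (TGACGTCA) were in too few windows to compare, 2 of 913 and 4 of 989. No test was made of these splits.

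Across 18 motifs and 3 comparison groups, 17 of 54 tests passed (31.5%). Of the liver factor letters, those of FOXA and C/EBP were scarcer in members than in shared ARID1A peaks. FOXA letters were in 3.52% against 6.70% (odds ratio 0.508, interval 0.369 to 0.703) and C/EBP letters (TTGCNCAA) in 2.89% against 4.88% (odds ratio 0.580, interval 0.405 to 0.835, adjusted p = 0.0140, Fisher exact test). HNF4 letters did not differ detectably between them, at 2.63% against 2.62%, HNF1 letters were in 0.631% against 1.38% (adjusted p = 0.102, Fisher exact test), and AP-1 letters missed the threshold at 7.47% against 9.69% (adjusted p = 0.0686, Fisher exact test). SP/KLF letters were also scarcer, at 8.94% against 11.9%, whereas CAGGTG was more frequent, at 19.5% against 15.3%. Each of the 4 calls against shared peaks held when windows were compared within 5 bands of GC content. With members taken only beyond 1000 bp of another ARID, the C/EBP call (odds ratio 0.596, adjusted p = 0.0671, Fisher exact test) and the SP/KLF call (odds ratio 0.817, adjusted p = 0.270, Fisher exact test) were lost. The odds ratio for FOXA letters was then 0.453 (adjusted p = 0.000591, Fisher exact test). Within bands of GC content it was 0.523 (adjusted p = 0.00130, Mantel-Haenszel chi-square test).

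Against ARID1B-alone peaks 9 motifs differed, and 4 against ARID2-alone peaks, but GC content differed between these groups too. SP/KLF letters were more frequent in members (8.94%) than in ARID1B-alone (2.15%) and ARID2-alone peaks (3.11%), and CTCF letters likewise (7.10%, 2.94% and 3.6%). Within bands of GC content only 2 of these 13 calls remained. SP/KLF letters stayed more frequent than in ARID1B-alone peaks (odds ratio 1.78, adjusted p = 0.00130, Mantel-Haenszel chi-square test). AGGTCA, in 16.1% of members and 21.3% of ARID1B-alone peaks, stayed less frequent (odds ratio 0.654, adjusted p = 2.10e-06, Mantel-Haenszel chi-square test). The odds ratio for CTCF letters within bands was 1.24 against ARID1B-alone peaks (adjusted p = 0.304, Mantel-Haenszel chi-square test).

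**Figure D4:**
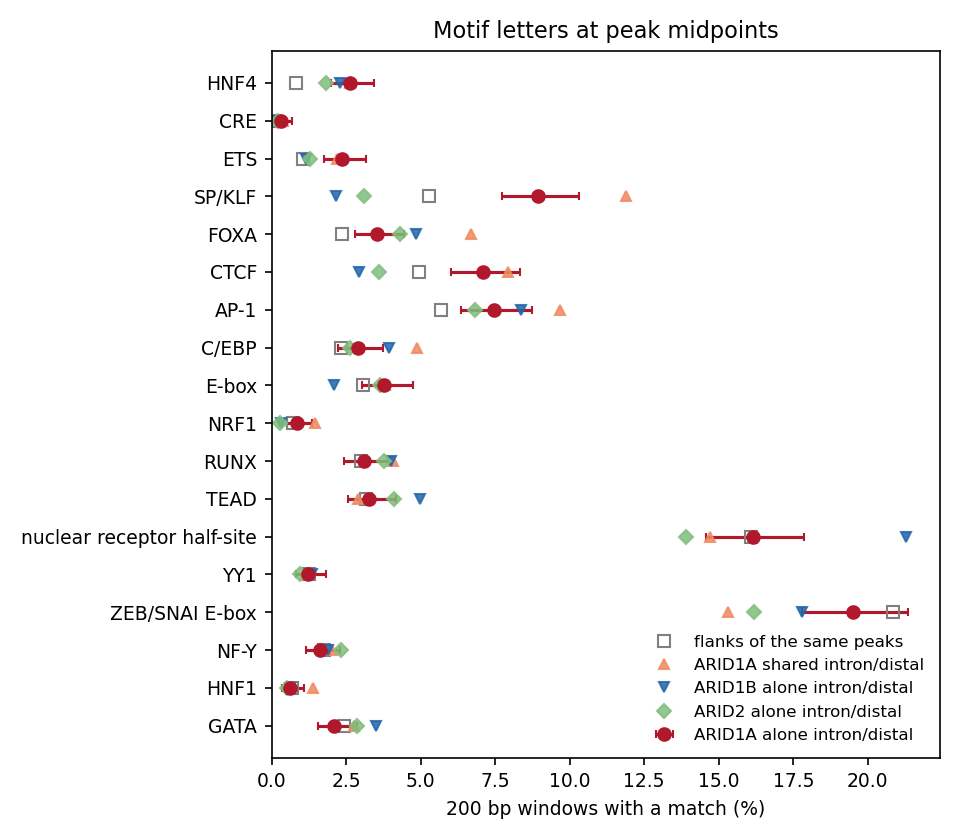
Share of 200 bp windows (%) with a match for each of 18 motifs, ordered by the ratio of members to flanks. Filled circles with Wilson 95% intervals are ARID1A-alone intron and distal peaks, open squares their flanks, and the other symbols the comparison groups. HNF4 has the highest ratio to its flanks (2.63% against 0.815%), and FOXA and C/EBP lie left of the shared ARID1A group.

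The deposited chromatin states were read on chromosome 1 only, since elsewhere the states of overlapping peaks in different lists matched little more often than the mix of states alone gives (values are in the closing observations). Of 184 members there, 53.3% carried an enhancer state (98 peaks, interval 46.1 to 60.3%) and 38% a promoter state, although every member was classed as intronic or distal. Enhancer states held 47.5% of shared, 65.7% of ARID1B-alone and 45.3% of ARID2-alone peaks, and promoter states 52.5%, 18.3% and 50.2%. Among members, strong enhancer states alone held 46.7%, and the active promoter state 25%. The active promoter state was more frequent than in 344 ARID1B-alone peaks, where it held 10.5% (odds ratio 2.85, interval 1.76 to 4.57, adjusted p = 0.000921), and heterochromatin was less frequent, at 2.72% against 9.59% (adjusted p = 0.0488, two-sided Fisher exact tests with Benjamini-Hochberg adjustment). These were the only 2 of 38 tests to pass (5.26%), and neither passed among peaks of at least 150 bp, where fewer peaks were tested and the odds ratios were 3.09 for active promoter and 0.278 for heterochromatin. Beyond 1000 bp of another ARID, active promoter still passed (odds ratio 3.83, adjusted p = 0.00983, Fisher exact test) and heterochromatin did not (odds ratio 0.346). Active promoter held 33.1% of 118 shared peaks and 36.6% of 243 ARID2-alone peaks.

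Split by SNF5, the members on chromosome 1 had similar promoter shares, 38.6% of 83 with SNF5 and 37.6% of 101 without. Enhancer states held 61.4% and 46.5%. Transcribed, repressed and heterochromatin states were seen in 16 of the 101 without SNF5 (15.8%, interval 9.99 to 24.2%) and in 0 of 83 with it, for which the upper bound of the interval is 4.42%. Shared ARID1A peaks also had 0 of 118 in those states, whereas ARID1B-alone peaks had 54 of 344 (15.7%) and ARID2-alone peaks 10 of 243 (4.12%). No test was made of the split by SNF5.

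**Figure D5:**
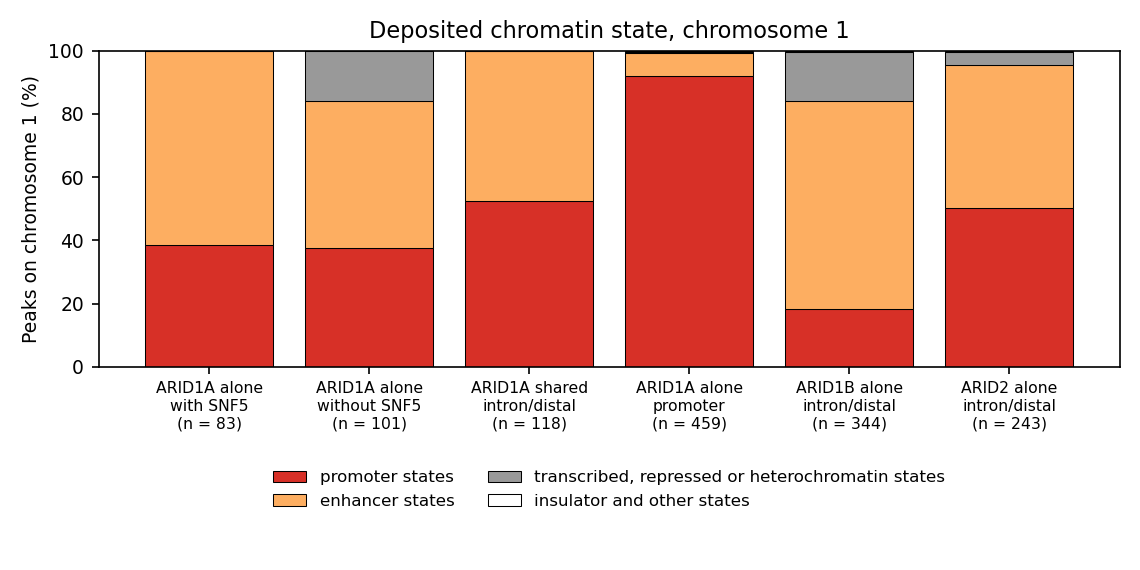
Share of chromosome 1 peaks (%) in promoter, enhancer and other deposited chromatin states, with ARID1A-alone intron and distal peaks split by SNF5 overlap and the number of peaks under each bar. The transcribed, repressed and heterochromatin block is 15.8% of ARID1A-alone peaks without SNF5 and empty for those with SNF5.

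The members had 1487 different nearest gene names, which is 17.6% of the 8448 names in the ARID1A list. Of these, 1241 names had 1 member, 173 had 2 and 73 had 3 or more. For 667 names the members were the only ARID1A peaks assigned, and 653 also had an ARID1A promoter peak. The names U6 (28 members on 14 chromosomes), Metazoa_SRP (23 on 12), Y_RNA (6 on 6) and snoU13 (6 on 5) stand for many gene copies and are not single loci. Among single loci, TRIM71 had the most, with 7 of its 11 ARID1A peaks. TRIM71 is an RNA-binding protein of embryonic cells and a target of let-7. Its members ran from 101 to 505 bp: 3 lay upstream of the TSS, the nearest at 1370 bp, and 4 lay in intron 1, as far as 32253 bp in. SNF5 overlapped 4 of the 7.

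SLC7A5, an amino acid transporter, had 6 members in intron 1 (chr16:87887906-87900582), of which 5 were under SNF5 peaks with scores of 21 to 32. DIDO1 had 5, all in intron 1 and all under SNF5, between 64 and 722 bp from another ARID. DOCK5, a guanine nucleotide exchange factor, had 5 as well, 4 of them with SNF5, yet none closer than 31087 bp to another ARID. The 5 members of CTC-786C10.1 on chromosome 16 had SNF5 at 1. The 5 of AC068279.3 on chromosome 2 had SNF5 at none, and the central 50 bases of 4 of them occurred between 4 and 23 times in the genome. Ties at 5 were taken by name, and FCGR2A, FNDC3B, GDF15, IZUMO2, LAMA5 and RP11-118F19.1 also had 5.

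Of 371 genes in 11 lists, 206 were nearest gene to some ARID1A peak and 61 to a member, with 76 member peaks, 42 of them under SNF5. That share of bound list genes, 29.6%, stands beside the 17.6% over all names, but genes with more ARID1A peaks have more chances to hold a member, so nothing is read from the difference. By list, members were found at 7 of 13 bound hepatocyte transcription factors, 9 of 22 secreted plasma proteins, 7 of 20 lipoprotein genes, 9 of 22 receptor tyrosine kinases and ligands, 10 of 33 actin and adhesion genes, 4 of 14 AP-1 and small MAF factors, 4 of 17 SWI/SNF subunits, 5 of 24 TGF-beta genes, 2 of 15 YAP and TEAD genes and 2 of 22 nuclear receptors.

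The hepatocyte transcription factors included HNF4A, CEBPB, PROX1, GATA4, XBP1 and TBX3. HNF4A, the nuclear receptor that governs much of hepatocyte gene expression, had a member of 101 bp (chr20:43031552-43031652), 1675 bp from a TSS and 694 bp from another ARID, under an SNF5 peak with a score of 20. It touched an exon of the newer annotation. CEBPB had 2 distal members, 4249 and 3648 bp from its TSS, the former under SNF5. XBP1, a factor of the unfolded protein response, had a member in intron 2 just 4 bp from another ARID. PROX1 had 1 of 53 bp under SNF5, while GATA4 and TBX3 each had 1 without it. The nuclear receptors were RARA and RORA. The RORA member was among the widest at 649 bp and was under SNF5, whereas the RARA member (406 bp) lay 581 bp from the nearest SNF5 peak.

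Plasma protein genes held 15 members, 11 of them with SNF5. At AFP, the fetal plasma protein that hepatoma cells express, a member of 307 bp (chr4:74297964-74298270) lay 43 bp from another ARID under an SNF5 peak with a score of 46, and a second, in intron 7, was 3308 bp from SNF5. PROC, the anticoagulant protein C, had 3, of which 2 were under SNF5. Members came in pairs in intron 1 of SERPIND1 (heparin cofactor), in introns 2 and 3 of ITIH2, and in intron 12 of FN1 (fibronectin), and each pair lay under a shared SNF5 peak. SERPINA3 and C3 (complement) had 1 each with SNF5, and SERPINA1 and AMBP 1 each without. The newer annotation placed the SERPINA3 member outside that gene, in intron 1 of an unnamed locus.

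In lipoprotein metabolism, 8 of 11 members had SNF5. APOB, the structural protein of low-density lipoprotein, had 2 in introns 3 and 4 under a single SNF5 peak of score 33, with distances of 215 and 533 bp to another ARID. SREBF1, which activates lipid synthesis genes, had 2 distal members with SNF5, and its target FASN had 2, of which the wide one in intron 1 was under SNF5. LRP5 and SCARB1 had 1 each in intron 1 with SNF5, and SCD 1 of 53 bp without.

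Among receptor tyrosine kinases and ligands, members in introns of EGFR, IGF1R and DDR2 lay 54111, 126644 and 35832 bp from another ARID, and of these only the DDR2 peak was under SNF5. FGF19, the enterohepatic hormone, had a 53 bp member in intron 2 under an SNF5 peak of score 35, and FGF21 a 72 bp member in intron 3, 2026 bp from SNF5. INSR, the insulin receptor, had 1 in intron 2 with 82% GC, under SNF5. EPHA1 had 1 with SNF5, and FGFR3 1 without. EPHA2, a locus the study itself examined, had 2 in intron 3, 34594 and 34136 bp from another ARID and without SNF5. These distances reach past both ends of the gene, so the ARID1B and ARID2 lists held no peak within EPHA2. The paper, by contrast, describes ARID1A, ARID1B and ARID2 binding at the promoter and first intron of EPHA2. Why the lists differ from that description was not tested. The other loci of that kind with a member were SPOCK2, without SNF5, and MYC, with it. The study picked those loci from these libraries, so they are not independent evidence.

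Signalling and cytoskeletal genes gave single sites. In the TGF-beta list 1 of 6 members was under SNF5, at SKIL, and the members of ACVR1B, SMAD7, SMURF2 and SKI (2) were not. TEAD4 and AJUBA each had 1 with SNF5, the AJUBA peak only 7 bp from another ARID. The newer annotation placed the AJUBA peak outside that gene, in intron 1 of an unnamed locus. Of the AP-1 and small MAF genes, MAFG had SNF5 and FOSL2, JUNB and MAFK did not. Among actin and adhesion genes, ACTN4, PXN, VASP and CTNND1 had a member with SNF5, and ACTB, ACTG1, TLN2, MYH10 and ITGB5 without. ARID1A itself carried 2 members in intron 1, at 1319 bp without SNF5 and at 9708 bp with it. ARID2 and BCL7A had 1 each with SNF5, and SS18L1 1 without.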

How the data were processed

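ChIP-seq libraries of HepG2 cells (MNase-digested chromatin) were grouped by the antibody in the labels. Per the study's methods, the authors aligned reads to hg19 with Bowtie2, merged replicates and called broad peaks with MACS2. The deposited peak boundaries, TSS distances and states are the authors', and the deposited SNF5 score is the authors' peak caller score. The lists used here carry no read counts, so depth is unknown.

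Members were found from coordinates (at least 1 bp of overlap). File starts count from 0, and the coordinates printed here count from 1. Members, gene lists and tests were chosen with earlier results of these data known. Shares were compared by two-sided Fisher exact tests (scipy 1.17.1) or Mantel-Haenszel tests within 5 strata (statsmodels 0.14.6), with a threshold of 0.05. Sequence came from GRCh37, with windows of 200 bp. Windows with unknown bases (2 members, on chromosome Y) were left out of sequence results. Functions were tested on simulated data. Named genes were those of 11 fixed lists nearest to a member, the 10 names with most members, and the genes at the 5 most extreme members for width, SNF5 score, TSS distance and distance to another ARID. The planned genome-wide test of states was limited to chromosome 1. The deposited single or multiple label was not used. A few genes that the naming rule covers are not reported here.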

Additional observations from a re-analysis of the deposited data

How the results depend on the processing

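No paired analysis was possible because each subunit has 1 peak list called on merged replicates; for the same reason no replicate could be left out. Of 141 alternatives over 30 results, 102 were classed as the same. For odds ratios this meant the same direction and call, and for counts a value within a set factor of the main one. The number of members was 1081 when alone meant more than 1000 bp from another ARID, and 2751 when sharing needed a reciprocal overlap of at least 50%. For SNF5 overlap against ARID1B-alone peaks, the odds ratio turned to 0.951 with a reciprocal overlap of at least 50% and to 0.925 among peaks whose central 50 bases occur once, and lost its call at 1.10 with midpoints within 500 bp and at 1.04 beyond 1000 bp. Against ARID2-alone peaks it turned to 0.945 with a gap of at most 1000 bp and lost its call at 1.12 with 200 bp windows, 1.13 within strata of width and 1.13 beyond 1000 bp. Intron against distal members gave 1.00 with midpoints within 500 bp, 1.02 within strata of width and 1.07 beyond 1000 bp, with no call in any setting. Within 5 strata of GC content 6 motif calls were left of 17. On chromosome 1, calls of chromatin states numbered 0 among peaks of at least 150 bp and 1 beyond 1000 bp, where fewer peaks were tested. For the other settings, the cause was not tested. The 200 bp windows for SNF5, strata of GC content, single-copy centres, the 1000 bp limit for GC content and the restriction to chromosome 1 were chosen after seeing the data. Peak lists without counts set no limit of detection.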

Other observations

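The deposited chromatin states matched between overlapping peaks on chromosome 1 well above the rate that the mix of states alone gives, and elsewhere closer to it. ARID1A and ARID2 peaks that shared a base carried the same state in 85.8% of 443 cases on chromosome 1, where 59.9% would match from the mix of states alone, and in 48.3% of 4737 cases on the other chromosomes without Y, where the mix alone gives 43.0%. ARID1A and ARID1B peaks matched in 85.9% of 206 and 38.5% of 2472 cases, against 40.1% and 30.0% from the mix alone. Intron peaks of ARID1A were in the active promoter state in 29.8% of 131 cases on chromosome 1 and 52.8% of 1522 elsewhere. The deposited promoter class did not show this pattern: it matched a TSS distance under 1000 bp in the newer annotation for 94.5 to 98.5% of ARID1A peaks on each chromosome with at least 50 peaks. Whether the state column was shifted against its peaks was not tested.

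The members made up 45% of the intron and distal ARID1A peaks on chromosome 6 and 47.2% on chromosome 20, against 58.1% over the genome and 72.6% on chromosome 15.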
